A study of Mus musculus with 6 samples.

Results

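ZIC proteins are transcription factors with an array of C2H2 zinc fingers close to that of the GLI proteins, and they pattern the dorsal neural tube and the forebrain midline. Their genes lie in head-to-head pairs in the mouse genome. In the adult brain *Zic* genes are known from medial and septal parts of the subventricular zone (SVZ) and from olfactory bulb interneurons. The members described here are 4 genes of this family, *Zic1*, *Zic4*, *Zic2* and *Zic5*, found by matching their symbols to the Ensembl identifiers of the deposited count table, which holds 49671 genes. They were chosen by their readout: the lower levels of *Zic1* and *Zic4* in some libraries of this series were known when the group was drawn up. The differences between the labels below are therefore a description of the 4 genes.

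RNA-seq was performed on neurosphere cultures of neural stem cells (NSCs) from the adult SVZ, grown with EGF and FGF. The control cultures came from *Tet3*loxp/loxp-*Gfap*-cre0/0 mice and the cre cultures from *Tet3*loxp/loxp-*Gfap*-cre+/0 mice. Both genotypes carried floxed *Tet3* on a C57BL6 background, were 2 to 4 months old and had no treatment beyond the culture medium. TET3 is a dioxygenase that oxidises 5-methylcytosine. The cre transgene was driven by a mouse *Gfap* promoter cassette and so acts in GFAP-positive cells and their progeny, and each culture pooled the brains of 2 animals. There were 3 libraries per label. The methods describe culture experiments in general as repeated on independent cultures, but the labels do not tie each library to a culture of its own, and a p-value here reflects only how far these libraries spread, which may be technical.

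*Tet3* had a level, in CPM (counts scaled to a common library size), of 114 in control 1, 136 in control 2 and 60.3 in control 3, and of 61.3 in cre 1, 60.5 in cre 2 and 116 in cre 3. The library labelled control 3 thus lay with cre 1 and cre 2, and the library labelled cre 3 lay with control 1 and control 2. The count sums reads over deleted and kept exons alike, so it is no direct reading of the excised exon. Fitted differences of the 4 members are given by the labels, with 6 libraries, and again on the 4 libraries left without control 3 and cre 3. The tests of ratios use the 6 libraries alone, and some neighbours and list genes are given in the 4 libraries alone. No library was moved between groups. Libraries held 29660398 to 35405326 counts, and no pair agreed within sampling noise. NSC markers such as *Sox2* and *Nes* were abundant in every library (165 to 199 and 1501 to 1619 CPM).

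*Zic1* lies on the reverse strand of chromosome 9 (GRCm38, 91358058 to 91365810), and *Zic4* on the forward strand beside it (91362413 to 91389348). Their annotated spans overlap by 3398 bases, of which 60 are exonic in both genes. *Zic5* lies on the reverse strand of chromosome 14 (122456795 to 122465677) and *Zic2* on the forward strand (122475435 to 122479852). Their starts are 9758 bases apart, and the spans do not overlap.

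The 250 bases before the start of *Zic1* (chr9:91365769-91366018, reverse strand), *Zic4* (chr9:91368722-91368971, forward strand) and *Zic5* (chr14:122465659-122465908, reverse strand) were read from RefSeq (GRCm38.p6). These sequences are shown as background, and their part in the levels was not tested. They are written 5′ to 3′, with each CpG in capitals. *Zic2* had no entry.

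Zic1: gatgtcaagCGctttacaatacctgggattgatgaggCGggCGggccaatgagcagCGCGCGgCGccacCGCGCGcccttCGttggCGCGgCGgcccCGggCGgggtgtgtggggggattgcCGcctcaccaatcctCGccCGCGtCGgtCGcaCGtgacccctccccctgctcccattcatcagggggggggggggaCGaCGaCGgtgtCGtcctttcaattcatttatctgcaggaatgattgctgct

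Zic4: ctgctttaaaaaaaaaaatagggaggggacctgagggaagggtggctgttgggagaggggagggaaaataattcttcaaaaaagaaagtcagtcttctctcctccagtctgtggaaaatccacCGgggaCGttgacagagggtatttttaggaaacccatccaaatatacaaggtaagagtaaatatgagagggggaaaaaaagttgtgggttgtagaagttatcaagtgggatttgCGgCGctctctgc

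Zic5: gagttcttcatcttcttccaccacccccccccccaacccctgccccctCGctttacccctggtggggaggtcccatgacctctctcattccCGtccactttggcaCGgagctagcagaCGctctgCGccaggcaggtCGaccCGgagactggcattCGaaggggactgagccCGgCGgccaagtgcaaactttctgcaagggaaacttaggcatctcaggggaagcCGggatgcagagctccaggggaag

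The *Zic1* sequence held 27 CpG sites, *Zic5* 11 and *Zic4* 4, against a median of 6 over 32851 mouse promoters of the same length. As many sites as *Zic1* were found in 8.56% of all promoters, as many as *Zic5* in 35.6% and as many as *Zic4* in 62.2%. Members of a pair with parallel levels, *Zic1* and *Zic4*, thus differed in CpG content, by an observed to expected ratio of 0.99 to 0.38. The letters CCTGCTG, a ZIC-type motif, and GGGTGGTC, a GLI-type motif, were searched on both strands. Neither was present in the 3 sequences, and 8.44% and 0.703% of all promoters held a match. The *Zic4* start used by RefSeq lies inside the annotated span of the gene, so these bases are one of its possible promoters. The last bases of the *Zic1* and *Zic5* sequences also lie inside the annotated spans of these genes. DNA methylation was not measured in these libraries.

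*Zic1*, a regulator of medial forebrain and cerebellar development in mice, was the most abundant member by counts. Its level was 81.2, 67.0 and 18.8 CPM in control 1 to 3 and 11.7, 9.69 and 49.8 CPM in cre 1 to 3. Control 1, control 2 and cre 3 were high and the other 3 libraries low, so that the label groups overlapped while the highest library was 8.38 times the lowest. The library labelled control 3 stood at 0.254 of the mean of control 1 and 2, and the library labelled cre 3 at 4.66 times the mean of cre 1 and 2.

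*Zic4*, the neighbour of *Zic1*, whose loss together with *ZIC1* has been linked to Dandy-Walker malformation in people, was read at a low depth. It had 122, 90 and 31 counts under the control labels (3.83, 2.67 and 0.916 CPM) and 15, 12 and 80 under the cre labels (0.424, 0.410 and 2.49 CPM). The same 3 libraries were high as for *Zic1*, and the highest was 9.36 times the lowest. The library labelled control 3 was at 0.281 of the mean of control 1 and 2, and cre 3 at 5.97 times the mean of cre 1 and 2.

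*Zic2*, a holoprosencephaly gene that also directs retinal axons at the midline in mice, followed another course. Its level was 11.999, 9.12 and 8.51 CPM in control 1 to 3 and 1.61, 6.55 and 7.68 CPM in cre 1 to 3. The lowest control library lay above the highest cre library. The share of all genes with such an order was not counted, so nothing is read from it. The library labelled cre 1 stood apart, with 57 counts against 192 in cre 2, and cre 2 was at 4.07 times its level. The library labelled control 3 kept 0.806 of the mean of control 1 and 2.

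*Zic5*, which lies opposite *Zic2* and is needed for neural tube closure and neural crest in mice, varied least. It was measured at 4.90, 4.28 and 5.05 CPM in control 1 to 3 and at 1.86, 2.73 and 4.54 CPM in cre 1 to 3. Cre 1 and cre 2 were low and the other 4 libraries close together, and the highest was 2.71 times the lowest. The library labelled control 3 held the highest value of all, and cre 3 lay within the control range. In the library labelled control 3, the chromosome 9 genes were thus low and the chromosome 14 genes were not.

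**Figure D1:**
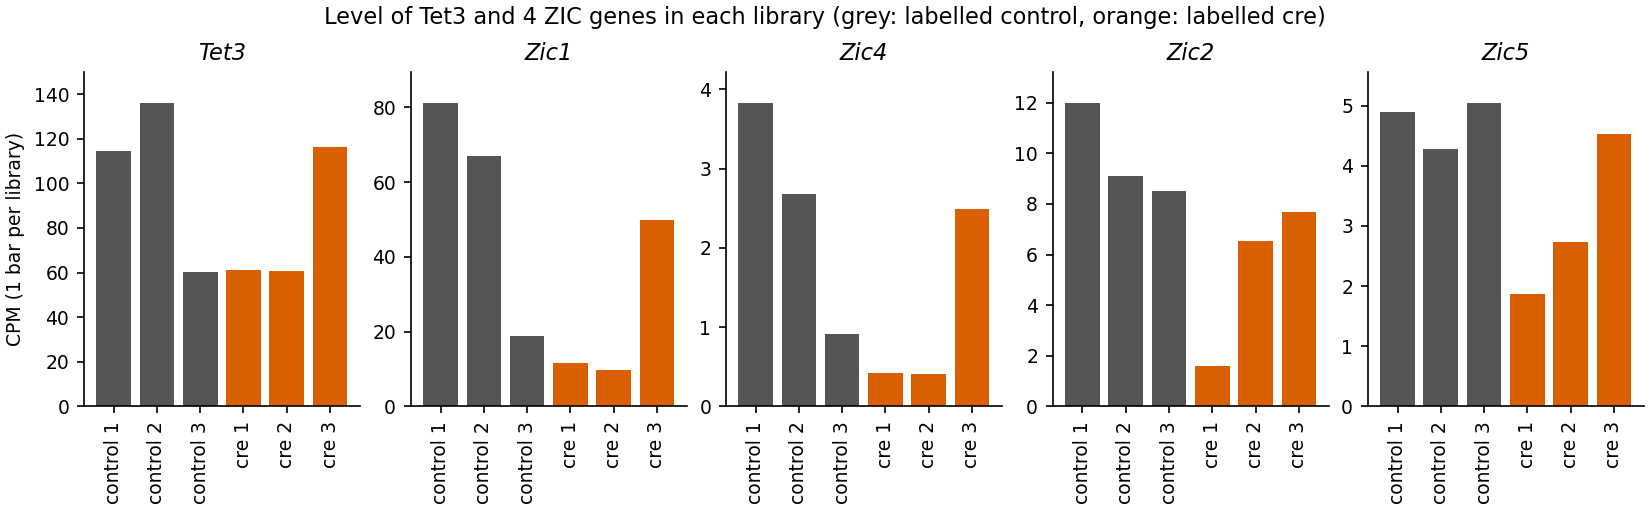
Level in CPM (y axis, from 0) of *Tet3* and the 4 genes in each library (x axis), 1 bar per library, grey for the control label and orange for the cre label. *Tet3*, *Zic1* and *Zic4* are low in control 3, cre 1 and cre 2, *Zic2* is lowest in cre 1 (1.61 CPM), and *Zic5* is low in cre 1 and cre 2 alone.

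The summed level of the 4 genes was 102, 83.1 and 33.3 CPM in control 1 to 3 and 15.6, 19.4 and 64.5 CPM in cre 1 to 3. *Zic1* took 79.7% of their summed counts in control 1 (95% Wilson interval 78.2 to 81.0%) and 80.7% in control 2 (79.2 to 82.1%). It took 75.0% in cre 1 (71.2 to 78.4%) and 77.2% in cre 3 (75.4 to 79.0%). Its share was lower in the library labelled control 3, at 56.5% (53.6 to 59.4%), and in cre 2, at 50.0% (45.9 to 54.1%), and these intervals cover counting error only. In these last libraries *Zic2* took 25.6% and 33.8%, against 10.3 to 11.9% in the other 4.

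Per kilobase of annotated exon, the order of the mean levels was *Zic1* (6.98 CPM per kb), *Zic2* (2.63), *Zic5* (0.796) and *Zic4* (0.173). Over libraries, *Zic1* ranged from 1.70 to 14.3 CPM per kb and *Zic2* from 0.559 to 4.17, so these neighbours in the order overlapped, and in cre 2 *Zic2* was above *Zic1*. *Zic5* (0.381 to 1.03 CPM per kb) overlapped *Zic2* across libraries but was below it within each. The highest *Zic4* level (0.371 CPM per kb) was below the lowest of *Zic5*. The exon length of *Zic4* (10335 bases, all isoforms joined) is the longest, which lowers its value per kb if short isoforms are used.

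In all 6 libraries, read by label, edgeR's quasi-likelihood test called 0 of 4 members and 0 of 16916 genes at an adjusted p under 0.05 (0% of genes higher and 0% lower), with 846 genes at an unadjusted p under 0.05. DESeq2 called 70 genes, edgeR's exact test 68 and limma-voom 0. The log2 fold change, cre minus control, was -1.23 for *Zic1* (SE 0.72), -1.16 for *Zic4* (SE 0.77), -0.91 for *Zic2* (SE 0.48) and -0.64 for *Zic5* (SE 0.31). All 4 had an adjusted p of 1.00 by the quasi-likelihood test. Each estimate was negative, including after leaving out any 1 library. With cre 3 alone left out the estimates were -2.38, -2.56, -1.29 and -1.05 in that order. With cre 1 alone left out they were -0.90, -0.76, -0.47 and -0.38, and with control 1 alone left out -0.85, -0.69, -0.74 and -0.62. Mean levels in the control and cre libraries were 55.7 ± 32.7 and 23.7 ± 22.6 CPM for *Zic1* and 2.47 ± 1.47 and 1.11 ± 1.19 CPM for *Zic4* (SD, n = 3 each). They were 9.88 ± 1.86 and 5.28 ± 3.23 CPM for *Zic2* and 4.74 ± 0.41 and 3.04 ± 1.36 CPM for *Zic5* (SD, n = 3 each).

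Without the libraries labelled control 3 and cre 3, 36 of 17003 genes (0.212%) were called higher and 42 (0.247%) lower by the same test, and 2 of 4 members, *Zic1* and *Zic4*, were among the lower genes. Because this contrast selected the members, nothing is read from that count. The log2 fold change was -2.79 for *Zic1* (SE 0.14) and -2.95 for *Zic4* (SE 0.35). Mean levels in control 1 and 2 were 6.93 and 7.81 times those in cre 1 and 2. *Zic4* was no longer called by limma-voom, without control 1 or without cre 1.

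In the same 4 libraries the log2 fold change was -1.39 for *Zic2* (SE 0.54) and -1.004 for *Zic5* (SE 0.26), neither of them called. For *Zic2* the library labelled cre 1 decided the size: the estimate was -0.69 without it and -2.71 without cre 2. For *Zic5* it was -0.75 without cre 1 and -1.30 without cre 2. With 2 libraries a group these values rest on a small sample.

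**Figure D2:**
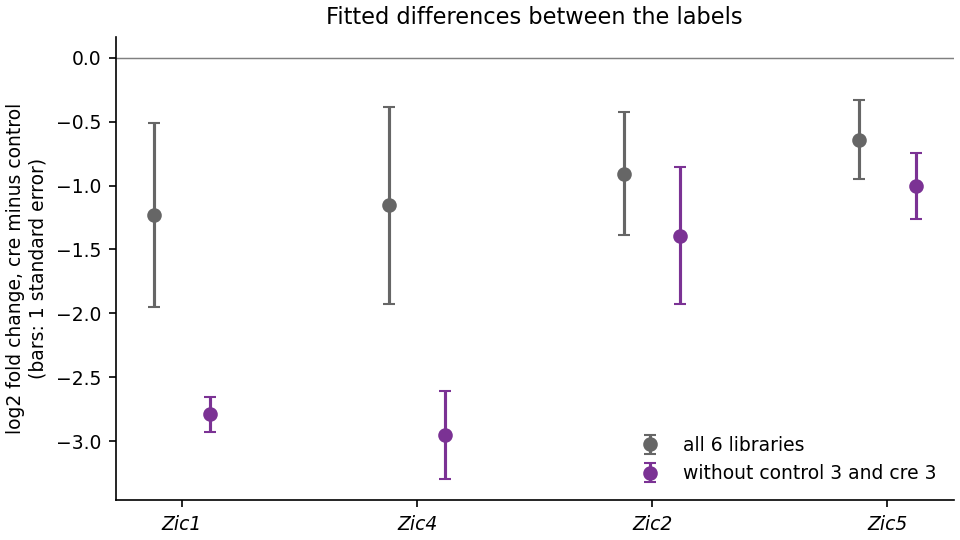
Log2 fold change, cre minus control (y axis), of the 4 genes (x axis) from edgeR's fit, with bars of 1 standard error, in all 6 libraries (grey) and in the 4 left without control 3 and cre 3 (purple). *Zic1* and *Zic4* move from -1.23 and -1.16 to -2.79 and -2.95, and *Zic2* and *Zic5* from -0.91 and -0.64 to -1.39 and -1.004.

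Ratios of counts within a library do not depend on its size. There were 21.2, 25.1 and 20.5 *Zic1* counts for each *Zic4* count in control 1 to 3 and 27.6, 23.7 and 20.0 in cre 1 to 3. While the levels of both genes varied over 8-fold, their log2 ratio spanned 0.42 over the 6 libraries. The log2 ratio of *Zic4* to *Zic1* averaged -4.46 ± 0.16 (SD, n = 3) under the control labels and -4.52 ± 0.21 (SD, n = 3) under the cre labels, a difference of -0.06 (exact permutation test, two-sided, p = 0.7, adjusted over 2 ratios 0.7).

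For *Zic5* and *Zic2* the ratio was less steady. *Zic5* counts were 40.8, 46.9 and 59.4% of *Zic2* counts in control 1 to 3 and 116, 41.7 and 59.1% in cre 1 to 3, so that cre 1 alone had more *Zic5* than *Zic2* counts. The mean log2 ratio was -1.04 ± 0.27 (SD, n = 3) and -0.60 ± 0.75 (SD, n = 3), a difference of 0.44 (exact permutation test, two-sided, p = 0.5, adjusted 0.7). It was 0.04 without cre 1. The smallest p that 3 against 3 libraries allow is 0.1, so neither ratio could pass 0.05.

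Between the pairs, *Zic2* counts were 14.8, 13.6 and 45.2% of *Zic1* counts in control 1 to 3 and 13.8, 67.6 and 15.4% in cre 1 to 3. This ratio was alike in control 1, control 2, cre 1 and cre 3 and higher in control 3 and cre 2. It was picked out after its values were seen and was not tested.

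**Figure D3:**
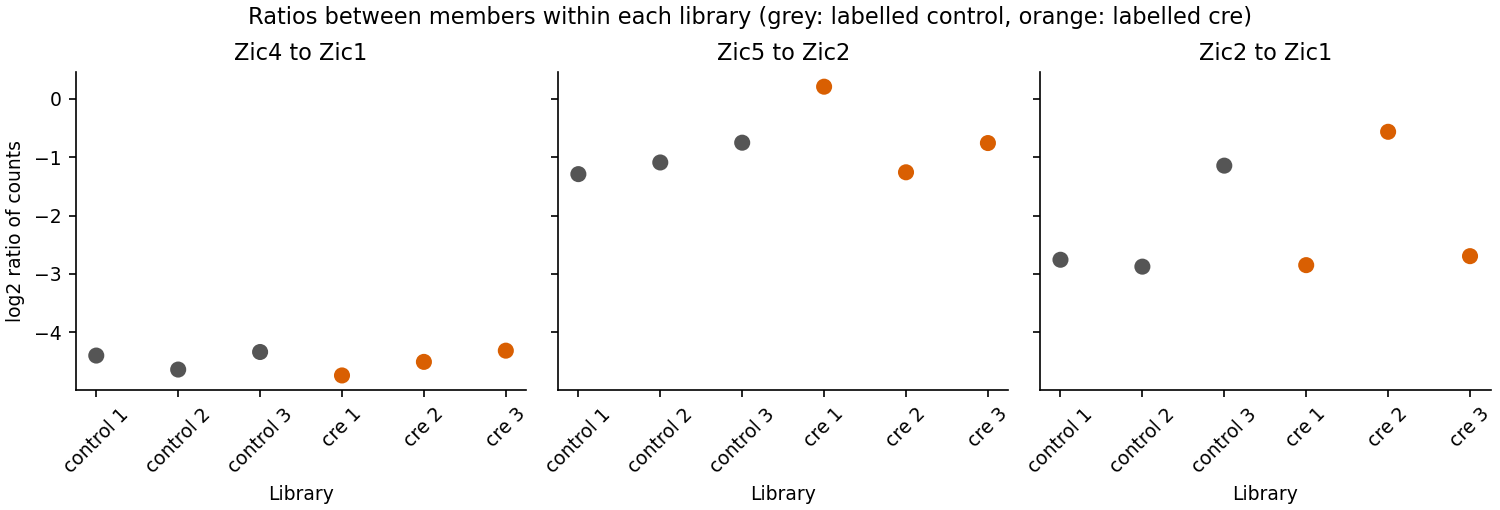
Log2 ratio of counts (y axis) in each library (x axis) for *Zic4* to *Zic1*, *Zic5* to *Zic2* and *Zic2* to *Zic1*, 1 point per library, grey for the control label and orange for the cre label. *Zic4* to *Zic1* spans 0.42, *Zic5* to *Zic2* is highest in cre 1, and *Zic2* to *Zic1* is highest in control 3 and cre 2.

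*Zic1* and *Zic4* reads could touch at the 60 exonic bases they share on opposite strands. The kit marks strand, but whether counting used it, or kept reads that touch both genes, is not stated. If *Zic1* reads lay evenly over its exons, each placed at a single position, those bases would hold 27.3 reads in control 1 and 2.99 in cre 2. Over the libraries this is 21.1 to 29.1% of the *Zic4* counts. With that many reads taken away, *Zic4* would keep 94.7 counts in control 1 and 9.01 in cre 2. The mean of control 1 and 2 would then be 8.15 times that of cre 1 and 2. Reads that only partly reach into the shared bases would add to this share, so these values set no upper limit on it. If counting dropped reads that touch both genes, such reads would not have added to the *Zic4* counts.

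Profiles over the 6 libraries were compared by the root mean square (RMS) difference of log2 CPM after subtracting each gene's mean. *Zic1* and *Zic4* were 0.14 apart, *Zic2* and *Zic5* 0.50, and genes of different pairs 0.86 to 0.93. Among 14442 genes, *Zic4* was the nearest to *Zic1*, and *Zic1* to *Zic4*. Lower levels of both in some libraries were known when the group was drawn up, so nothing is read from this rank. Whether reads on their shared exonic bases drew both profiles together was not tested. *Zic5* was only the 12th nearest to *Zic2*, and *Zic2* was the 4344th nearest to *Zic5*, whose small variation brings many genes close.

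**Figure D4:**
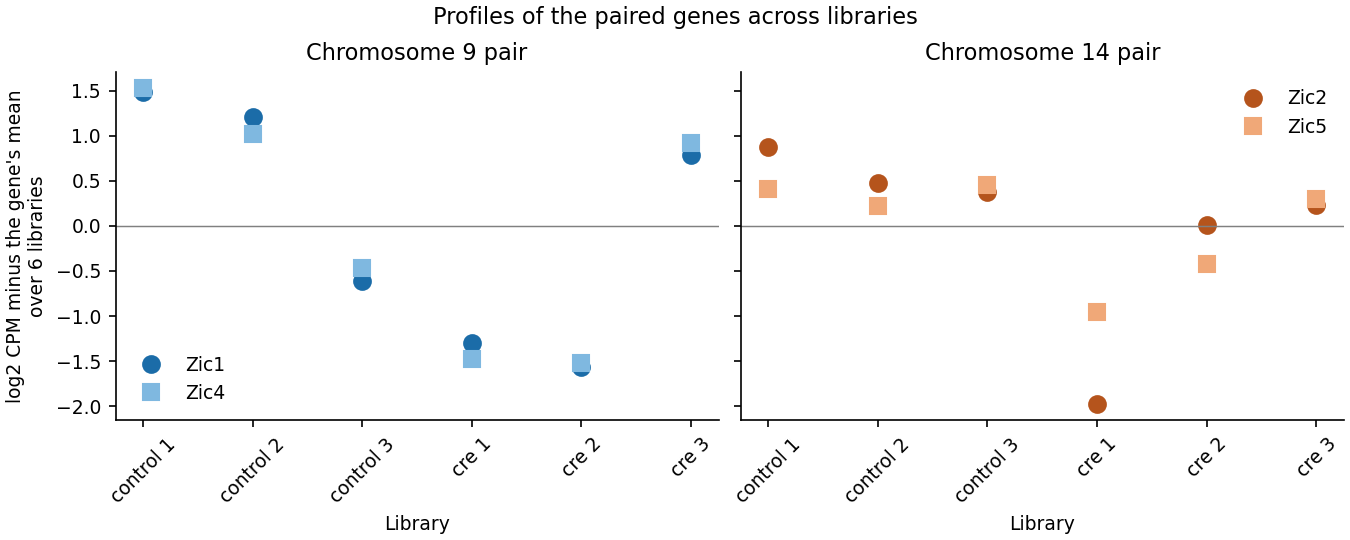
Log2 CPM minus the gene's mean over 6 libraries (y axis) in each library (x axis) for the chromosome 9 pair (left) and the chromosome 14 pair (right). *Zic1* and *Zic4* nearly coincide in each library, whereas *Zic2* lies well below *Zic5* in cre 1.

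After *Zic4*, the genes nearest to *Zic1* were *Gsap* (RMS difference 0.35), which encodes a gamma-secretase activating protein, *Elavl4* (0.41), a neuronal RNA-binding protein gene, *Adora2b* (0.43), an adenosine receptor gene, and *Otx1* (0.44), a forebrain homeobox gene. *Gsap* was at 29.4, 25.7 and 10.2 CPM in control 1 to 3 and 7.40, 6.04 and 18.8 CPM in cre 1 to 3. It was high in control 1, control 2 and cre 3, as *Zic1* was. *Gsap*, *Elavl4* and *Adora2b* were also the next nearest to *Zic4* (0.38, 0.43 and 0.44).

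Nearest to *Zic2* were *Cd93* (RMS difference 0.17), a cell-surface glycoprotein gene, *C030005K06Rik* (0.19), *Aldh1l1* (0.26), an astrocyte folate enzyme gene, *Il33* (0.35), a cytokine gene, and *Gm29521* (0.38). *Cd93* was at 478, 317 and 355 CPM in control 1 to 3 and 58.5, 316 and 346 CPM in cre 1 to 3. *Aldh1l1* was at 510, 434 and 400 CPM and at 126, 351 and 420 CPM. As for *Zic2*, the library labelled cre 1 was the low one for both.

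Nearest to *Zic5* were *Dio2* (RMS difference 0.14), the deiodinase gene that activates thyroid hormone, *Fam221a* (0.15), *Ephx2* (0.16), an epoxide hydrolase gene, *Olfml2a* (0.16) and *2810459M11Rik* (0.17). *Dio2* was at 4.52, 3.83 and 4.40 CPM in control 1 to 3 and 1.81, 1.95 and 3.92 CPM in cre 1 to 3, low in cre 1 and cre 2. These likenesses rest on 6 libraries that share their depth and preparation.

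Of the 16 annotated genes in the table within 500 kb of *Zic1* and *Zic4*, 0 were protein-coding and 1 passed the filter on low counts, a pseudogene with a log2 fold change of -0.07 in the 4 libraries. The annotated transcript *Gm37477*, which overlaps *Zic4*, had at most 8 counts in a library. Around *Zic5* and *Zic2*, 10 of 19 genes were tested, 6 of them protein-coding, and 0 were called in either comparison.

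Among the protein-coding neighbours, the mitochondrial enzyme genes *Pcca* and *Clybl* had log2 fold changes of -0.16 (SE 0.09) and -0.06 (SE 0.15) in the 4 libraries. *Tm9sf2* was at 0.03 (SE 0.07) and *Ubac2* at 0.08 (SE 0.08). *Ggact* was at -0.74 (SE 0.26) and *Tmtc4* at -1.37 (SE 0.46), against -0.62 (SE 0.22) and -0.65 (SE 0.46) by the labels. The 4 first had values near 0, and the last 2 did not pass the test.

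The non-coding gene *2610035F20Rik*, annotated between *Zic5* and *Zic2* and picked out after its values were seen, had 44, 34 and 39 counts in control 1 to 3 and 4, 16 and 32 in cre 1 to 3. Cre 1 was the lowest library, as for *Zic2*. The fitted log2 fold change was -1.11 by the labels and -1.90 (SE 0.64) in the 4 libraries, not called in either.

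**Figure D5:**
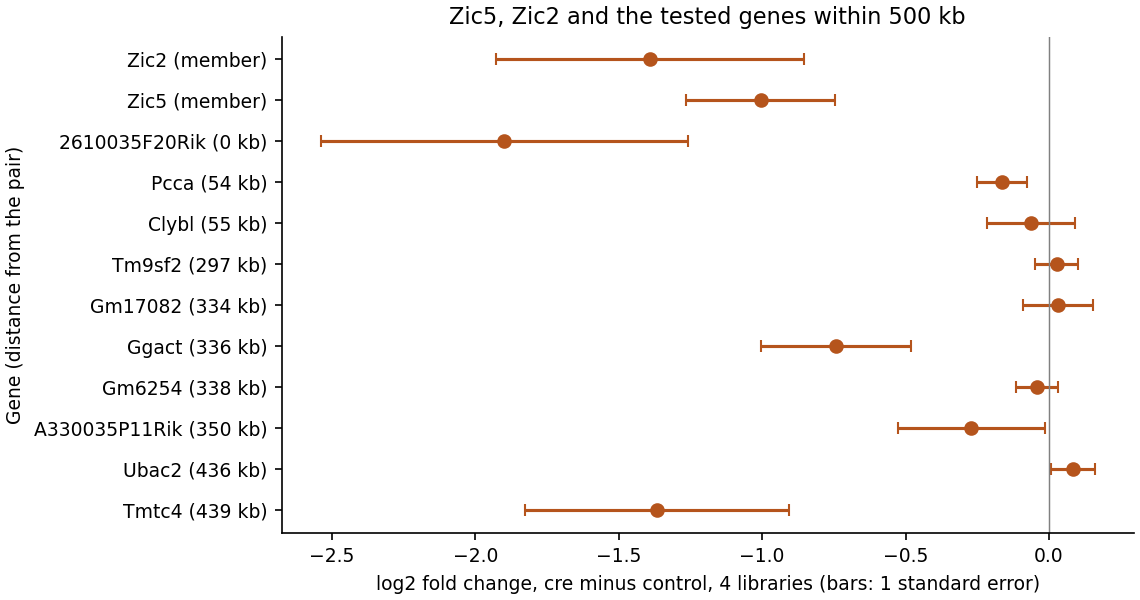
Log2 fold change, cre minus control, in the 4 libraries (x axis, bars of 1 standard error) for *Zic2*, *Zic5* and the 10 tested genes within 500 kb, ordered by distance from the pair. *2610035F20Rik* is at -1.90 and *Tmtc4* at -1.37, while *Pcca*, *Clybl*, *Tm9sf2* and *Ubac2* lie between -0.16 and 0.08.

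Other genes around ZIC function were read from lists. The median log2 fold change over all genes tested was -0.00497 by the labels and -0.000536 in the 4 libraries, and 0 genes of the 6 lists that follow were called in either. Of the GLI and GLIS relatives, which share the zinc finger array, 5 of 6 were tested, with a median of 0.11 in the 4 libraries and 0.25 by the labels. *Glis2* ranged from 38.4 to 47.2 CPM and *Gli3* from 29.1 to 39.0 CPM. All 8 genes of binding partners described for ZIC proteins were tested, with medians of 0.02 and -0.03. They include the chromatin remodeller gene *Chd4* (477 to 544 CPM) and *Parp1* (291 to 402 CPM).

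Of 7 genes described downstream of ZIC proteins, 2 were tested, and *Foxd3*, *Myf5* and *Pax3* had 0 counts in all 6 libraries. *Ephb1*, the guidance receptor gene downstream of *Zic2* in mouse retinal ganglion cells, was at 28.0, 25.9 and 12.3 CPM in control 1 to 3 and 12.7, 20.0 and 22.8 CPM in cre 1 to 3, with a log2 fold change of -0.72 (SE 0.20) in the 4 libraries. By the labels the log2 fold change was -0.25 (SE 0.33), and the label groups overlapped. *Apoe*, which encodes apolipoprotein E, ranged from 120 to 284 CPM with no order by label. Its log2 fold change was -0.34 (SE 0.27) in the 4 libraries and -0.15 (SE 0.35) by the labels.

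Of 14 holoprosencephaly genes 9 were tested, with medians of 0.01 in the 4 libraries and 0.18 by the labels. *Ptch1*, the hedgehog receptor gene, had a log2 fold change of -0.36 (SE 0.10), and *Cdon*, a hedgehog co-receptor gene, one of 0.71 (SE 0.13), both in the 4 libraries. By the labels these were -0.20 (SE 0.12) and 0.60 (SE 0.12). Of 17 dorsal midline and septum genes 4 were tested, with medians of 0.68 and 0.51, and roof plate genes such as *Lmx1a* and *Wnt3a* had at most 1 count in a library. *Bmp7* was at 0.50 (SE 0.08) and *Lhx2* at 0.18 (SE 0.09) in the 4 libraries, and at 0.29 (SE 0.12) and 0.27 (SE 0.08) by the labels.

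Of 15 olfactory bulb interneuron genes, 9 were tested in the 4 libraries, with a median of 0.07, and 8 by the labels, with a median of 0.13. *Etv1* was at -0.51 (SE 0.08) and *Meis2* at 0.41 (SE 0.13) in the 4 libraries, and at -0.30 (SE 0.12) and 0.27 (SE 0.15) by the labels. *Th*, the tyrosine hydroxylase gene of dopaminergic interneurons, had at most 1 count in a library.

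*Zic* genes are also expressed in meninges and the cerebellar granule lineage, so markers of meninges and cerebellum were read beside them. The summed level of 12 meningeal fibroblast markers was 5.49 to 12.8 CPM under the control labels and 4.29 to 19.6 CPM under the cre labels. *Col1a1*, *Col1a2* and *Dcn* were at 5.40, 5.51 and 4.72 CPM in cre 1 and at most at 0.650 CPM elsewhere, while *Foxd1* and *Tbx18* had 0 counts in all libraries. *Foxc1*, the most abundant of these markers, ran the other way, at 12.1, 9.24 and 4.55 CPM in control 1 to 3 and 2.80, 5.67 and 3.67 CPM in cre 1 to 3. It was lowest in cre 1 and highest in control 1 and 2, the libraries in which *Zic1* was highest. In cre 3, where *Zic1* was also high, *Foxc1* was below its levels in control 3 and cre 2. Its log2 fold change of -1.34 (SE 0.32) in the 4 libraries did not pass the test. The 6 cerebellar markers summed to 6.47 to 23.1 CPM and 6.37 to 8.16 CPM, with *Pax2* at 0 throughout. *En2* made up most of these sums and was at 20.4 CPM in control 3 and 3.79 to 6.62 CPM elsewhere. *Barhl2* (0, 0.475 and 2.04 CPM in control 1 to 3 and 2.37, 1.74 and 1.27 CPM in cre 1 to 3) and *Neurod1* (0.0314 to 0.990 CPM) were lowest in control 1, where *Zic1* was highest, and neither passed the test. The 6 choroid plexus markers summed to 0.772 to 8.09 CPM and 1.49 to 3.45 CPM, with *Folr1* at 0 in all libraries. The part of these cells in the *Zic* levels was not tested.

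The 6 mature astrocyte markers summed to 844 to 1083 CPM under the control labels and 623 to 940 CPM under the cre labels, with cre 1 lowest. Among them *Gfap* was called higher in the 4 libraries. It was at 0.503, 0.327 and 6.62 CPM in control 1 to 3 and 3.84, 3.52 and 0.280 CPM in cre 1 to 3. *Gfap* was thus high in the 3 libraries in which *Zic1* and *Zic4* were low. The cassette of the cre transgene carries the *Gfap* exons, with a small part of exon 1 removed. Whether reads of the transgene were counted as *Gfap* was not tested. *Aldoc* was lowest in control 1 and control 2 (221 and 240 CPM), but cre 3 (333 CPM) was level with cre 1 (334 CPM). The rest went otherwise. *Aqp4* was highest in cre 3 (3.82 CPM) and lowest in cre 1 (1.13 CPM). *S100b* was high in control 3 alone (42.1 CPM). *Aldh1l1* and *Gja1* were lowest in cre 1 (126 and 140 CPM) and highest in control 1 (510 and 185 CPM). The part of these markers in the *Zic* levels was not tested. In bulk RNA, fewer cells that express a gene and less RNA per cell cannot be told apart.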

How the data were processed

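RNA was sequenced with a stranded poly(A) kit from 6 neurosphere libraries, 3 labelled control and 3 labelled cre. The authors' reads were aligned to GRCm38.p5 by Subread, and Rsubread assigned them to Ensembl genes. Versions and the strand and overlap settings are not given in the sources used here. The deposited values are raw counts for 49671 genes.

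Counts were tested with edgeR 4.0.16 (TMM, quasi-likelihood test, Benjamini-Hochberg over all genes tested, threshold 0.05) in R 4.3.3, after edgeR's default filter on low counts. All 4 members passed. The sources name no test for the counts. CPM used TMM-scaled library sizes, log2 CPM a prior count of 2, and ratios a pseudocount of 0.5 with scipy's exact permutation test. Alternatives were DESeq2 1.42.0, limma 3.58.1 (voom), the exact test, other normalizations and filters, a block for the label number, and 1 library left out at a time. Symbols were matched for 49326 genes, and exon lengths, coordinates and neighbours came from the GENCODE annotation of GRCm38. At these depths 3 counts equal 0.0848 to 0.102 CPM.

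The members and lists were chosen with earlier results of these data known. Genes named beside the members are, by rule, the 5 nearest in profile for each member with an SD of log2 CPM of at least 0.5 (genes of at least 1 CPM), the protein-coding genes within 500 kb that were tested, and for each list up to 4 called genes or the 2 most abundant. Of the markers, *Gfap* is named as the only gene called. The other markers were named outside this rule with their values known. List genes named for their 0 or low counts were also picked after their values were seen. One gene that the rule gave is not reported here.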

Additional observations from a re-analysis of the deposited data

How the results depend on the processing

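By the labels, 0 genes were called with the quasi-likelihood test, 70 with DESeq2, 68 with the exact test, 3 with no filter, 78 without both libraries labelled control 3 and cre 3, and 0 to 18 when 1 library was left out (18 without control 3). In the 4 libraries, 78 genes were called, against 478 with DESeq2, 638 with the exact test, 1325 with no filter, and 59 to 297 when 1 library was left out. When 1 library is left out there, the lone library of a group is assumed to vary like the others.

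The log2 fold change of each member was negative under every alternative run. By the labels no member was called under any alternative that kept all 6 libraries or left out 1. In the 4 libraries *Zic1* was called under all 12 alternatives (-2.94 to -2.65) and *Zic4* under 9 of 12 (-3.20 to -2.67). *Zic2* was also called with no filter (-1.40) and without cre 2 (-2.71), and *Zic5* with the exact test (-1.005) and with no filter (-1.01). The 4-library estimates are those by which members were chosen.

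Libraries that share a number across the labels had deviations from their label means that correlated at -0.09, 0.01 and -0.02 over 16916 genes. These means include control 3 and cre 3, whose *Tet3* levels went against their labels, so the check cannot exclude a pairing. With the number as a replicate block, 0 genes were called by the labels and 169 in the 4 libraries. The log2 fold change of *Zic1* was then -1.55 by the labels and -2.79 in the 4 libraries.

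The difference in the log2 ratio of *Zic4* to *Zic1* was -0.04 with a pseudocount of 1 and -0.17 to 0.05 when 1 library was left out, changing sign without cre 1 (0.047). That of *Zic5* to *Zic2* was 0.44 with a pseudocount of 1 and 0.04 to 0.77 when 1 library was left out. With Pearson's correlation in place of the RMS difference, 2 of the 5 nearest genes of *Zic1* were shared, 2 of *Zic4*, 3 of *Zic2* and 1 of *Zic5*. Depth limits *Zic4* most, with 12 to 122 counts a library.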
